A study of Mus musculus with 6 samples.

Results

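The 9 genes of the cyclins that drive the mouse cell cycle, Ccne1, Ccne2, Ccna1, Ccna2, Ccnb1, Ccnb2, Ccnd1, Ccnd2 and Ccnd3, were examined for binding of the transcription factor E2F1. They were chosen by name from 21887 protein-coding genes of the RefSeq annotation of GRCm38.p6, and all 9 were found. The data are chromatin immunoprecipitation sequencing (ChIP-seq) peak lists from the mouse fibroblast line NIH/3T3, which derives from embryos. There were 2 libraries of cells with a doxycycline-inducible E2F1 construct and 2 of cells with an inducible empty vector (EV), with 1 peak list per library. Cells of both groups had been starved of serum for 48 h and then received doxycycline for 12 h, so starvation and the drug were shared and the construct was the difference. The treatment protocol gives 500 ng/ml doxycycline, while the peak names carry the tag 200 beside the drug, and the dose used for these libraries is therefore not settled. The cells made E2F1 from an added construct, and nothing in the labels says whether the replicates came from separate cultures, so their spread may be technical. The lists measure binding and not expression.

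Cyclins are the regulatory subunits of cyclin-dependent kinases (CDKs), and each class acts in its own phase. D-type cyclins couple growth signals to CDK4 and CDK6 and start the phosphorylation of the retinoblastoma protein, which frees E2F factors. Cyclins E and A then partner CDK2 at the entry to and through S phase, and B-type cyclins partner CDK1 in mitosis. Ccne1, Ccne2 and Ccna2 are textbook E2F target genes. B-type cyclin genes are best known as late cell cycle genes that are controlled through CCAAT boxes and CHR elements. Ccna1 is known as the germ line A-type cyclin.

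RefSeq promoter sequence of GRCm38.p6 was at hand for 5 members, Ccne1, Ccna1, Ccnb1, Ccnb2 and Ccnd3, the last with 2 starts. The 250 bases before the start are printed 5′ to 3′ on the gene's strand because they set the strongest peak (Ccne1), the narrow peaks of the B-type genes (Ccnb1 and Ccnb2), the peak at an internal start (Ccnd3) and the member with no peak at all (Ccna1) side by side. Capitals mark E2F words (TTCCCGC or TTCGCGC or TTGCCGC or TTGGCGC, on either strand), their 6-letter cores without the leading T (TCCCGC or TCGCGC or TGCCGC or TGGCGC), and CCAAT boxes.
Ccne1, chr7:38107491-38107740, minus strand: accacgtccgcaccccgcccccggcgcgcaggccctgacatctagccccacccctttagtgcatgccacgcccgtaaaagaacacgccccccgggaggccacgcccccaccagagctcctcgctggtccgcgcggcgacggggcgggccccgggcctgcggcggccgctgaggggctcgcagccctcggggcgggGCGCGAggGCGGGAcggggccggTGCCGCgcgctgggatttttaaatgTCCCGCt
Ccnb1, chr13:100786487-100786736, minus strand: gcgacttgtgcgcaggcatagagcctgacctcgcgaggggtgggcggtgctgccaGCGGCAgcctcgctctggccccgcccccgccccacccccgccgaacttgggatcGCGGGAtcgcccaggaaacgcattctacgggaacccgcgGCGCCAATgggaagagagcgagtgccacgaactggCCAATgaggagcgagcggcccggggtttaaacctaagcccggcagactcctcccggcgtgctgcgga
Ccnb2, chr9:70421555-70421804, minus strand: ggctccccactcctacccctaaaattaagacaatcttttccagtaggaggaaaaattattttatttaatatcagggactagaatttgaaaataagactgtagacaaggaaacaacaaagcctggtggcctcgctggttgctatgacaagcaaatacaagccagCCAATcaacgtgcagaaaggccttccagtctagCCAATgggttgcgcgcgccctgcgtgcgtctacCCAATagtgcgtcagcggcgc
Ccnd3, the second start, chr17:47593217-47593466, plus strand: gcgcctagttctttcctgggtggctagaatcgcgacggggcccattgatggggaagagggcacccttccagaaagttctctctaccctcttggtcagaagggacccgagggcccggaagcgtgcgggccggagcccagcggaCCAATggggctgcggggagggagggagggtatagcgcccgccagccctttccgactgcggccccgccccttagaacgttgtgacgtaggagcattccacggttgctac
Ccna1, chr3:55055056-55055305, minus strand: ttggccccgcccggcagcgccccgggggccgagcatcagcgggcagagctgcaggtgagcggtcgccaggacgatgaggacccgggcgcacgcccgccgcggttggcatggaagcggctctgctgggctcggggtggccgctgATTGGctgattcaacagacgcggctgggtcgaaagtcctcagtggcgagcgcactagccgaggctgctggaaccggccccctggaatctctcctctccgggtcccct
Matches were searched from 250 bases before to 50 bases after the start, a window of 300 bases. The only E2F word in these windows was in Ccnb1, in reverse orientation with its first base 102 bases upstream, where it shares bases with a CCAAT box 99 bases upstream. Of 32851 promoter windows in the table, 9.57% held an E2F word, as did 23.6% of the 6993 windows overlapped by a peak in both E2F1 lists and 5.13% of the 24327 overlapped in neither. The shorter cores, added after the values were seen, matched 4 times in Ccne1, at 55, 47, 32 and 7 bases upstream, and 3 times in Ccnb1, at 195, 141 and 102 bases upstream. They matched in neither window of Ccnd3 nor in those of Ccnb2 and Ccna1. The only start given for Ccna1, position 55055055, lies inside its gene span and not at the higher boundary, 55057634. Sequence at that boundary was not searched. Such a core was present in 36.3% of all windows and in 77.8% of those with a peak in both E2F1 lists. Ccnb2 held 3 CCAAT boxes, 87, 54 and 21 bases upstream, and a CHR word (TTTGAA) in each of 2 places, 167 bases upstream and 5 bases into the transcript. CCAAT (either strand) was found in 37.4% of all windows and a CHR word (TTTGAA or TTCGAA, either strand) in 19.2%. In windows overlapped by a peak in both E2F1 lists the shares were 35.9% for CCAAT and 11.1% for a CHR word. In windows overlapped in neither they were 37.6% and 22.0%. A match is a description of the letters and was not tested as a binding site.

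A peak lay inside or within 1000 bp of 7 of the 9 members in E2F1 replicate 1 and of 6 of the 9 in E2F1 replicate 2, and of 0 of the 9 in each EV list. Ccne1, Ccne2, Ccna2, Ccnb1, Ccnb2 and Ccnd3 had a peak in both E2F1 lists, Ccnd2 in replicate 1 alone, and Ccna1 and Ccnd1 in neither. Among all protein-coding genes the same rule found a peak for 36.9% in the first E2F1 library and 38.2% in the other, and in the EV libraries for 0.0366% (replicate 1) and 0.407% (replicate 2). Counting only peaks at or above the median score of their list left 4 of 9 members in each E2F1 list, against 19.8% and 20.4% of all genes, with Ccne1, Ccne2, Ccna2 and Ccnd3 retained in both. For both E2F1 lists together the share was 34.4% of all genes and 40.9% of the 12532 genes whose length lay within the members' range, against 6 of 9 members. The mean number of members with a peak was 6.5 ± 0.71 (SD, n = 2) in E2F1 and 0 in both EV libraries. No EV peak came closer to any member than 358633 bp, the distance to Ccna1 in EV replicate 2. The groups did not overlap, and the exact two-sided permutation test over libraries gave p = 0.333, the smallest that 2 against 2 libraries allow, so this design cannot pass 0.05. The whole lists hold 7836 and 8027 peaks in the E2F1 libraries and 70 and 358 in the EV libraries, and the lowest local background of a list, the measure of depth used here, ran from 1.18 reads in EV replicate 2 to 2.20 reads in EV replicate 1.

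**Figure D1:**
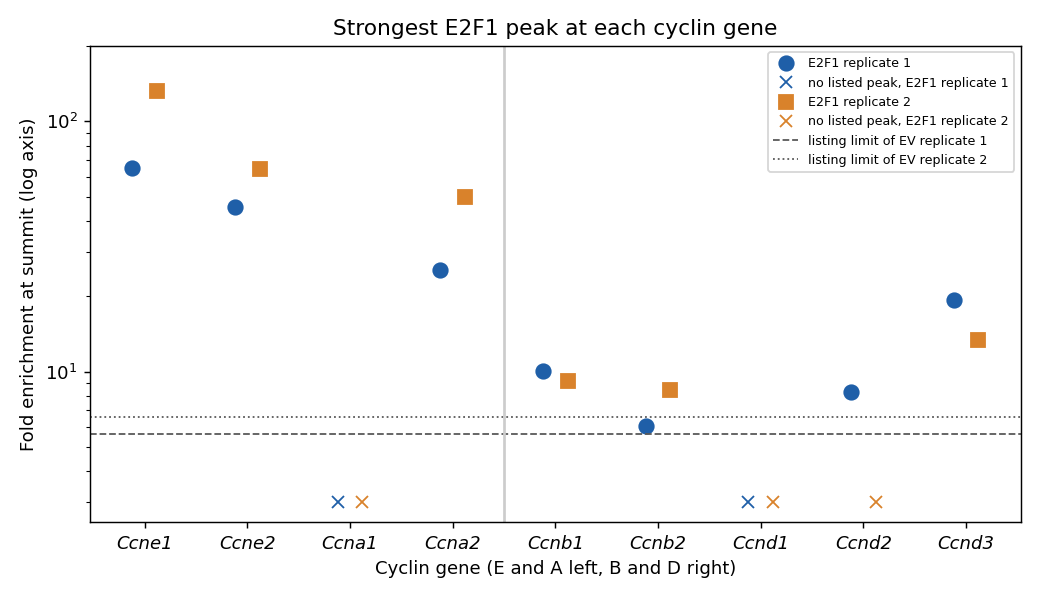
Fold enrichment at the summit of the strongest listed peak (log axis) for each of the 9 cyclin genes in E2F1 replicate 1 (circles) and E2F1 replicate 2 (squares), with crosses at the bottom where no peak was listed and horizontal lines at the listing limits of the EV lists. Ccne1, Ccne2 and Ccna2 stand above every B-type and D-type gene in both lists, and Ccnb1, Ccnb2 and Ccnd2 lie near the limits.

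Fold enrichment is the authors' value for a peak, the read pileup at the summit over the local background, and it served to order the peaks of each list. Ccne1, which encodes cyclin E1, the CDK2 partner at S phase entry, had the strongest peak of the members. Its fold was 65.0 in E2F1 replicate 1, rank 6 of 7836 by fold, and 131.6 in E2F1 replicate 2, rank 2 of 8027. The peak spanned chr7:38105924-38108683 in replicate 1 and chr7:38105899-38108507 in replicate 2, and the summits lay 375 and 350 bp upstream of the annotated start, beyond the printed 250 bases. Both peaks covered the whole promoter window and ran 1566 and 1591 bp into the gene. Neither EV list held a peak there, and the nearest EV peak was 873415 bp from the gene in EV replicate 1 and 434149 bp in EV replicate 2.

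Ccne2 encodes cyclin E2, the other E-type partner of CDK2. Its peak had folds of 45.3 (rank 46) and 64.5 (rank 77) in E2F1 replicates 1 and 2. It spanned chr4:11189635-11192947 and chr4:11190078-11192530, with summits 461 and 394 bp inside the lower boundary of the gene. The non-coding gene A630034I12Rik overlaps that end of Ccne2, and its own boundary lay 336 and 403 bp from the summits, so the peak cannot be given to one of these genes.

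Ccna2 encodes cyclin A2, which partners CDK2 in S phase and CDK1 later. Its folds were 25.4 (rank 460) in E2F1 replicate 1 and 50.05 (rank 192) in E2F1 replicate 2. The peak lay wholly inside the gene, at chr3:36570636-36572483 and chr3:36570942-36572504, and its near edge was 555 and 534 bp from the higher boundary. The end of the neighbour Bbs7, a gene of the minus strand, was 659 and 638 bp from the peak. Ccna1, with a gene span of chr3:55045469-55057634, had no listed peak in any library.

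Ccnb1 and Ccnb2 encode the mitotic partners of CDK1, and their peaks were narrow. The fold of Ccnb1 in E2F1 replicate 1 was above the median of all listed peaks, 9.19, while that of Ccnb1 in replicate 2 and those of Ccnb2 were below the medians of their lists. Ccnb1 had folds of 10.1 (rank 3413) and 9.18 (rank 4975). Its peaks were chr13:100786022-100786518 in E2F1 replicate 1 and chr13:100786270-100786755 in E2F1 replicate 2. They shared 249 bp, with the summit 173 bp downstream of the start in replicate 1 and 203 bp upstream in replicate 2. In replicate 2 the peak covered the whole promoter window, including the E2F word and both CCAAT boxes, while in replicate 1 it reached only 32 bp upstream of the start and covered none of these. Ccnb2 had folds of 6.04 (rank 6281) and 8.43 (rank 5322), at chr9:70421184-70421604 and chr9:70421312-70421604. The summits were 148 and 98 bp downstream of the start, and both peaks ended 50 bp upstream of it, covering the CHR word inside the transcript and the CCAAT box nearest the start but not the other 2 boxes in full.

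The D-type genes, whose products answer growth signals, differed in where their peaks lay. Ccnd3 had folds of 19.2 (rank 985) and 13.4 (rank 3316). Its peak was 88648 and 88533 bp downstream of the first annotated start, at chr17:47592815-47594848 and chr17:47593245-47594698. The table gives Ccnd3 a second start at position 47593467, and the summits were 232 and 117 bp downstream of it. At the first start, position 47505051, no peak was listed within 1000 bp. The nearest was a peak of E2F1 replicate 2 alone, fold 9.29, at chr17:47502036-47502313, which is 2738 bp away. It lies inside Taf8, beside the start of that minus-strand gene at position 47502321.

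Ccnd2 had a peak in E2F1 replicate 1 alone, at chr6:127149331-127150802, with a fold of 8.30 and rank 4522. Its summit was 2744 bp inside the higher boundary of Ccnd2 and 55 bp from the first annotated start of the non-coding gene 9330179D12Rik, which overlaps that end. In E2F1 replicate 2 no peak was listed there. Ccnd1 had no peak in the window, but both E2F1 lists held a pair of peaks beyond its higher boundary. The nearer had folds of 7.63 and 9.63, at chr7:144941179-144941925 and chr7:144941211-144941888, and began 1348 and 1380 bp from the gene, just outside the 1000 bp limit. The farther had folds of 15.4 (rank 1639) and 25.4 (rank 1179), at chr7:144942206-144943686 and chr7:144943065-144943732, which began 2375 and 3234 bp from the gene. The next gene on that side, Gm46023, was at least 125309 bp from these peaks. At Ccnb1 the only other peak within 5000 bp, with folds of 9.96 and 7.81, was 2812 and 2760 bp from the gene and overlapped the start of Cenph, on the other side of Ccnb1 from its own peak.

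**Figure D2:**
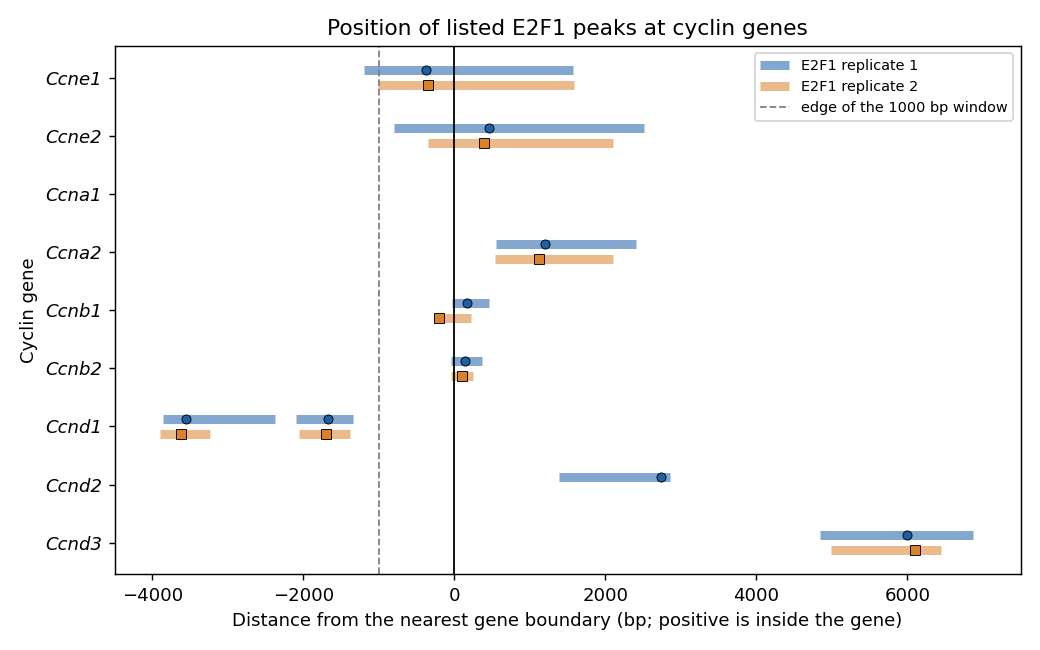
Listed peaks at the cyclin genes as bars, with the summit as a symbol, against the distance in bp from the nearest gene boundary (positive values are inside the gene), for E2F1 replicate 1 and E2F1 replicate 2. Peaks at Ccne1, Ccne2, Ccnb1 and Ccnb2 cross the boundary, those at Ccna2, Ccnd2 and Ccnd3 are inside, and those at Ccnd1 are outside the dashed 1000 bp limit. The peaks beside Cenph and Taf8 are not drawn.

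A peak crossed a boundary of the gene at 4 of the 7 members in E2F1 replicate 1 and 4 of the 6 in E2F1 replicate 2, the same genes in both. Over all protein-coding genes with a peak, the strongest peak crossed a boundary for 63.6% and 70.7%. By mean log2 fold the order of the members with peaks in both E2F1 lists was Ccne1 at 6.53 ± 0.72 (SD, n = 2), Ccne2 at 5.76 ± 0.36, Ccna2 at 5.16 ± 0.69, Ccnd3 at 4.00 ± 0.37, Ccnb1 at 3.27 ± 0.096 and Ccnb2 at 2.83 ± 0.34. Each list gave the same order. Ccne2 and Ccna2 were the only neighbours in it whose ranges over the 2 lists overlapped. The genes most like Ccne1 among 7537 with a peak in both E2F1 lists, by distance over the log2 folds of the 2 lists, were Mdc1 (folds 57.4 and 134.4, distance 0.18), Pds5a (67.5 and 104.3, distance 0.34) and E2f7 (53.9 and 106.9, distance 0.40).

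Cyclin E and A genes carried stronger and, by median, wider peaks than cyclin B and D genes, apart from Ccna1 and Ccnd1, which had none in the window. In E2F1 replicate 1 the 3 E and A genes with a peak had folds of 25.4 to 65.0 with a median of 45.3, and the 4 B and D genes had 6.04 to 19.2 with a median of 9.19. In E2F1 replicate 2 the 3 E and A genes had 50.05 to 131.6 with a median of 64.5, and the 3 B and D genes had 8.43 to 13.4 with a median of 9.18. Both E and A medians were the values of Ccne2, whose peak cannot be told apart from one of A630034I12Rik. Among genes with a listed peak the classes did not overlap in either list, and Ccna1 stays outside this comparison. The median over all protein-coding genes with a peak was 9.73 in replicate 1 and 12.0 in replicate 2, so the B and D medians were below it and the E and A medians above. The difference between class medians was 2.31 on the log2 scale in replicate 1 and 2.81 in replicate 2, a mean of 2.56 ± 0.36 (SD, n = 2), which corresponds to a ratio of 5.90. Ccnd2 entered the B and D median in replicate 1 alone, so this SD also holds a change in the set of genes. Genes are not replicates, so no test was made of this difference.

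E and A peaks were 1848 to 3313 bp wide in E2F1 replicate 1 and 1563 to 2609 bp in E2F1 replicate 2. B and D peaks were 421 to 2034 bp and 293 to 1454 bp. Ccnd3, at 2034 and 1454 bp, was the widest of the B and D genes and in replicate 1 wider than Ccna2. Ccnb2 was among the narrowest peaks of E2F1 replicate 2, at rank 7849 of 8027 by width. The class medians differed by 1776 bp in replicate 1 and 1967 bp in replicate 2, a mean of 1871 ± 135 bp (SD, n = 2), where all protein-coding genes with a peak had medians of 974 and 844 bp. Here too the B and D median included Ccnd2 in replicate 1 alone, so the SD also holds that change. Across all listed peaks fold and width had a Spearman's rho of 0.49 in replicate 1 and 0.58 in replicate 2, given as a description since both come from the same reads, so width is no separate support for the fold.

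**Figure D3:**
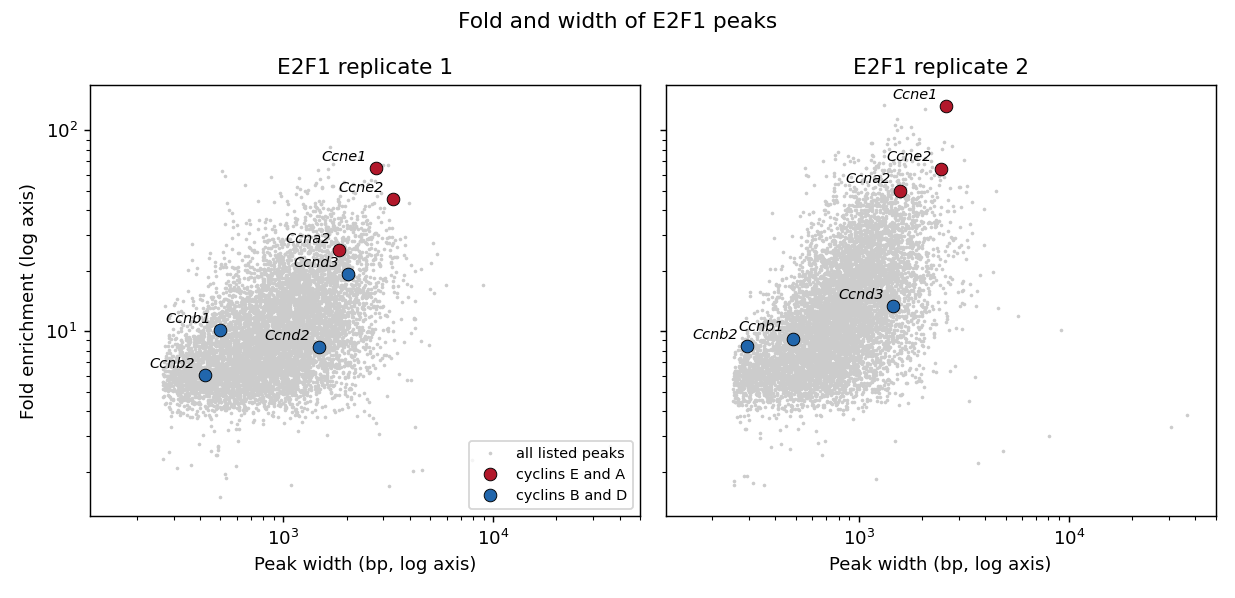
Fold enrichment against peak width in bp (both axes logarithmic) for all listed peaks of E2F1 replicate 1 (left) and E2F1 replicate 2 (right), with the peaks of cyclin E and A genes in red and of cyclin B and D genes in blue. The E and A genes sit toward the upper right of the cloud, Ccnb1 and Ccnb2 among its narrow peaks at the left, and Ccnd3 among the wider peaks at a lower fold than the E and A genes.

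The read pileup behind each peak was recovered from its fold and p-value, and at 5 of the 6 members with a peak in both E2F1 lists it was closer between the replicates than the fold. For Ccne1 the pileup was 379 reads in E2F1 replicate 1 and 417 in E2F1 replicate 2, a ratio of 1.10, while the fold differed by a ratio of 2.02. The local background there was 4.84 reads in replicate 1 and 2.18 in replicate 2. Ccne2 had pileups of 254 and 221 reads, and Ccna2 of 145 and 142 reads, again over a background of 4.63 and 4.74 reads in replicate 1 and of 2.44 and 1.86 in replicate 2. Ccnd3 moved the other way, with pileups of 66 and 71 reads over backgrounds of 2.48 and 4.39 reads and a fold ratio of 0.69. Ccnb2 had 26 and 27 reads. Ccnb1 was the exception, with 33 and 27 reads, a pileup ratio of 0.82 against a fold ratio of 0.91. The lowest backgrounds of these lists were close, at 1.85 and 1.86 reads. E and A genes with a peak thus had pileups of 142 reads or more and B and D genes with a peak of 71 or fewer in both lists. Ccna1 had no listed peak and Ccnd1 none in the window, so neither has a pileup here. The farther peaks beyond Ccnd1 had 68 reads in replicate 1 and 74 in replicate 2. On the log2 scale the class medians of the pileup differed by 3.05 ± 0.021 (SD, n = 2). Ccnd2 entered the B and D median in replicate 1 alone, so this SD also holds a change in the set of genes.

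**Figure D4:**
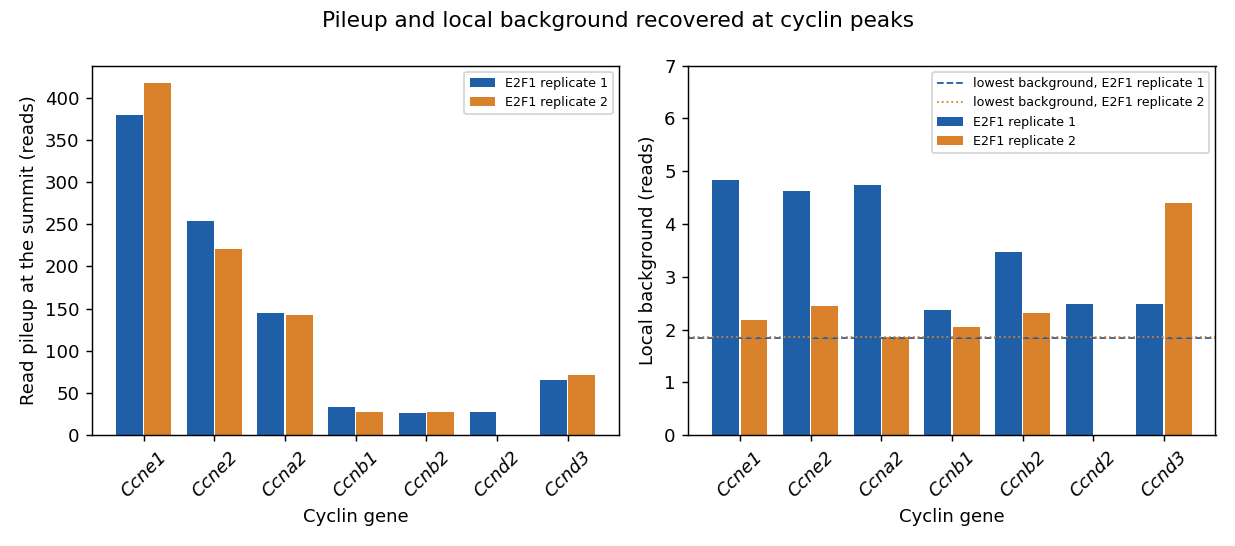
Recovered read pileup at the summit (left) and local background (right), in reads, for the strongest peak of each cyclin gene with a peak in E2F1 replicate 1 (blue) and E2F1 replicate 2 (orange), with dashed and dotted lines at the lowest background of each list. Pileups at Ccna2, Ccnb2 and Ccnd3 are nearly equal in the replicates, while the backgrounds at Ccne1, Ccne2 and Ccna2 are higher in replicate 1 and that at Ccnd3 is higher in replicate 2.

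How far the EV lists bear on a member depends on its fold, since every list ends just above a −log10 p of 10. The limit in fold was worked out at that p for local backgrounds down to the lowest recovered from each list. At such backgrounds a site with a fold above 5.63 in EV replicate 1 or 6.60 in EV replicate 2 would have been listed. A site with a lower background could need a higher fold, and EV replicate 1 has only 70 peaks to set its lowest. The folds of Ccne1 in the E2F1 lists were 9.86 to 23.4 times these limits, those of Ccne2 6.87 to 11.5 times and those of Ccna2 3.86 to 8.89 times. Ccnd3 was 2.02 to 3.42 times the limits. Ccnb1 was 1.39 to 1.79 times the limits, Ccnb2 0.92 to 1.5 times, and Ccnd2 in its single list 1.26 to 1.47 times. For Ccnb2 in E2F1 replicate 1 the fold of 6.04 was below the limit of EV replicate 2, so a site of that fold could have gone unlisted there if its local background was low. The limits of the E2F1 lists were 5.97 and 5.95. Under the same condition on the background, they bound the fold that Ccna1, or Ccnd2 in replicate 2, could have had without being listed.

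Genes that act with these cyclins were counted by the same rule. Of 18 other cyclin genes 12 had a peak in E2F1 replicate 1 and 13 in E2F1 replicate 2, with Ccnf (folds 31.8 and 85.9), whose product is the F-box cyclin, and Ccnl1 (26.0 and 58.2), a splicing-linked cyclin, the strongest in both lists. Ccnb3, Ccnc, Ccng1, Ccnjl and Cntd1 had a peak in neither. Of 13 kinases and their regulators 10 and 11 had a peak. Cdk1 (19.9 and 38.2), the partner of B-type cyclins, and Wee1 (15.3 and 46.9), which inhibits it, were highest by mean log2 fold. Pkmyt1 (25.8), Cks2 (24.1) and Cdk4 (20.4) were above both in replicate 1, and Cdk2 (42.1) was above Cdk1 in replicate 2. Cdc25c and Cdk7 had none. Of 7 CDK inhibitor genes 4 had a peak in each list, with Cdkn2c (19.1 and 52.5) and Cdkn2d (15.1 and 48.1) highest by mean log2 fold and Cdkn1b highest in replicate 1 (43.4, against 12.7 in replicate 2), while Cdkn1c, Cdkn2a and Cdkn2b had none. Of 15 genes of cyclin turnover 13 had a peak in each list. Ube2s (42.8 and 80.8), an enzyme of the anaphase-promoting complex, and Fbxo5 (66.9 and 39.5), an inhibitor of that complex, were highest by mean log2 fold, though Skp2 (46.6) was above Fbxo5 in replicate 2, and Cdc20 had none. Among all protein-coding genes the share with a peak was 36.9% in E2F1 replicate 1 and 38.2% in E2F1 replicate 2. No gene of these lists had a peak in either EV list, where only 0.0366% (replicate 1) and 0.407% (replicate 2) of all genes had one. The median fold of the listed genes with a peak ran from 9.48 to 17.1 in replicate 1 and from 14.1 to 39.8 in replicate 2.

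**Figure D5:**
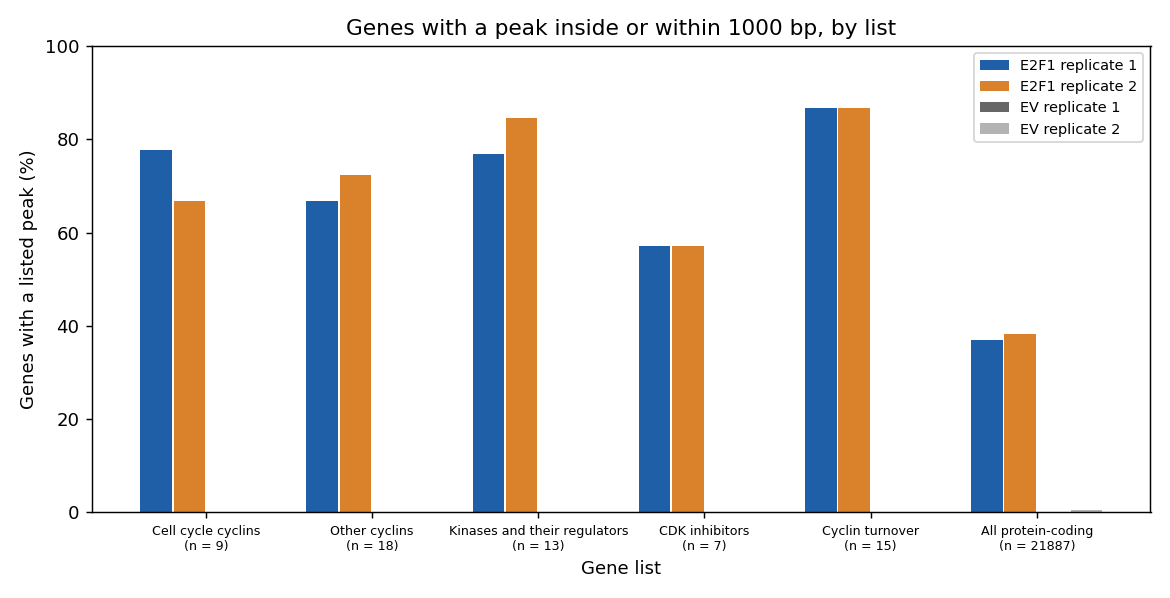
Share of genes (%) with a listed peak inside or within 1000 bp, for the 9 cell cycle cyclins, 4 lists of genes that act with them and all protein-coding genes, in the E2F1 libraries and the EV libraries, with the number of genes under each name. The cyclins stand at 77.8% and 66.7% in the E2F1 lists against 36.9% and 38.2% of all genes, and the EV bars of the 5 lists are at 0.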

How the data were processed

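Peak lists of 4 ChIP-seq libraries were used. The 2 input samples of EV cells have no list and were not analysed here. Per the submitters' processing notes, reads were handled with FastQC, Trimmomatic, Bowtie2, MACS2 and ChIPseeker on build mm10, without versions. The protocols in the labels describe RNA libraries, so the antibody, the control and the thresholds are not given in the sources used here. Each deposited list has the 10 columns of the narrowPeak layout and no header: the authors' peak score, the fold (a ratio to local background), the −log10 p and −log10 q of the peak, and the summit offset. The replicate numbers come from the titles, and a single presence value per library cannot show whether they pair the samples.

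Members and lists were chosen with earlier results of these data known. A gene had a peak where a listed interval came within 1000 bp of its GRCm38.p6 span by at least 1 bp, and its strongest peak was the one with the highest fold. All 9 members were named. Of each list of related genes, the 2 with the highest mean log2 fold and those without a peak were named, and Skp1a was matched as Skp1 by synonym. The pileup and background were solved from fold, taken as pileup plus 1 over background plus 1, and p, taken as a Poisson tail. A whole pileup fitted within 5% of 1 step for 99.99% and 99.98% of E2F1 peaks and 95.7% and 99.7% of EV peaks (replicates 1 and 2). Scripts were tested on simulated data and ran in Python 3.11.15 with NumPy 2.4.6, pandas 2.3.3 and SciPy 1.17.1.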

Additional observations from a re-analysis of the deposited data

Results flagged for a closer look

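The window of 1000 bp left out the peaks beyond the higher boundary of Ccnd1, which both E2F1 lists hold and neither EV list does. The nearer peak had folds of 7.63 in E2F1 replicate 1 and 9.63 in E2F1 replicate 2, and the farther 15.4 and 25.4. The farther peak was stronger than those of Ccnb1 and Ccnb2 in both E2F1 lists and than that of Ccnd2 in replicate 1, and in replicate 2 stronger than that of Ccnd3. Whether these peaks act on Ccnd1 was not tested.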

How the results depend on the processing

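Of 83 alternatives computed over 11 results, 78 were counted as the same and 5 moved, with 0 reversed. Same meant within the spread or within 1.5 times the count. The class difference in fold percentile, 55.5 points, is also among the 78, but it is on another scale and the spread does not apply to it. Values of single members made up 48 of the alternatives, and 0 of these moved. Leaving out 1 of 2 libraries shifts a mean by less than its SD, so such alternatives for a mean could not move. The count of 78 is therefore no measure of robustness. With peaks at or above the median score of each list, 4 members kept a peak in each E2F1 list (Ccne1, Ccne2, Ccna2 and Ccnd3), a difference from EV of 4 in place of 6.5, because weaker peaks are removed by construction. The difference was 6 to 7 without one library and 7.5 with windows of 2500 bp or 5000 bp (the latter chosen after seeing the data), which take in Ccnd1. The replicate block left it at 6.5, where the exact test by sign flips gave p = 0.5 and 2 pairs allow no smaller value. The E and A against B and D difference in log2 fold ran from 2.31 to 2.81 without one E2F1 library. It was 2.47 with a window of 2500 bp and 2.36 with 5000 bp, which take in Ccnd1. For the recovered pileup the difference was 3.05. The width difference was 1580 bp with a window of 2500 bp and 1582 bp with 5000 bp, and ran from 1776 to 1967 bp without one E2F1 library. The median log2 fold over members, 4.00, was 4.27 without E2F1 replicate 2 and 4.69 without E2F1 replicate 1, where Ccnd2 has no value.

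Weaker sites are missing from every list. The EV lists show least for Ccnb1, Ccnb2 and Ccnd2, whose folds in the E2F1 lists were 0.92 to 1.79 times the EV listing limits. Only Ccnb2 in E2F1 replicate 1 fell below a limit, that of EV replicate 2.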
